A study of Mus musculus with 2 samples.

Results

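RNA-seq was examined for 8 transcription factors that mark and maintain hepatocyte identity, *Cebpa*, *Cebpb*, *Foxa1*, *Foxa2*, *Foxa3*, *Onecut1*, *Prox1* and *Gata4*. They were taken by gene name and not by a cut on their measured values, though with earlier results of these data known. They make up 8 of the 34745 genes listed. The RNA, selected by its poly(A) tail, came from livers of male mice, 8 to 10 weeks old, at day 3 after 2/3 partial hepatectomy (PH), in which 70% of the liver is removed and the remnant regrows. The KO library came from mice labelled miRNA-182 KO, which carry the knockout of miR-182-5p on 1 allele in every cell and so keep the other allele. The WT library came from wild-type mice given the same operation. Each genotype was represented by 1 library, the number of mice in a library and the strain of the knockout line are not given in the sources used here, and no unoperated liver was sequenced. The libraries are written KO and WT below. No difference between them therefore has a replicate check, the spread between mice could not be measured, and the 95% intervals below cover counting error only. A test was run only with an assumed spread, as an alternative. A gene is called higher or lower here when the libraries differed by at least 2-fold, which is 1 on the log2 scale.

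Hepatocytes keep their identity through a small network of transcription factors that bind together at liver enhancers and promoters and at each other's genes. FOXA proteins open chromatin early in liver development, GATA4 acts beside them in the gut endoderm, ONECUT1 and PROX1 control the growth and fate of hepatoblasts, and the C/EBP proteins drive the genes of the mature liver. After PH the balance within this network shifts, because C/EBPα restrains division of hepatocytes while C/EBPβ is induced early and is needed for a full proliferative response.

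The question set by the genotype is whether these factors carry matches to the seed of miR-182-5p, the bases by which a miRNA recognises its targets. The mature miRNA is shown with its seed, bases 2 to 8, in capitals (RefSeq, GRCm38.p6, chr6:30165962-30165986, minus strand), and the sites are shown as 30 bases of the 3′ UTR with the matching letters in capitals (GENCODE M21, GRCm38).
miR-182-5p: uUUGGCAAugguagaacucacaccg
*Cebpa*, chr7:35121512-35121541, plus strand: tgctctgattcTTGCCAAActgagactctt
*Foxa3*, chr7:19013589-19013618, minus strand: ggttcagcagaTGCCAAAttggccaccata
*Onecut1*, chr9:74891461-74891490, plus strand: attcactaaaaTGCCAAAtcgaaaaaaatt

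The site of *Cebpa* is an 8mer, TTGCCAAA, which pairs with the whole seed and ends in an A. It starts at base 1150 of the 1555 bases of the 3′ UTR. *Foxa3* and *Onecut1* each hold the shorter 7mer-A1, TGCCAAA, at base 531 of 854 and base 1874 of 2183. The longest 3′ UTRs of *Cebpb*, *Foxa1*, *Foxa2*, *Prox1* and *Gata4* held no 8mer or 7mer, although that of *Prox1* is 5185 bases long. Over the 12541 tested genes with a 3′ UTR, whose median length was 1309 bases, 5.50% held an 8mer and 21.7% held a site of any of these kinds. A match is a description of the letters and does not show that the miRNA acts there.

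Total counts were close, 13247497 for KO and 13163348 for WT, but the 13 mitochondrial genes that encode proteins took 51.7% and 31.0% of them. Because this large share differs, the scaling matters for every value that follows. Under edgeR's TMM scaling, used here, the median log2 fold change of the 13561 genes that reached 10 counts in the 2 libraries together was 0.00, and under scaling by total counts it was −0.60, which moves all genes down together. The defining marker of hepatocytes, *Alb*, the gene of albumin, was abundant in both libraries, with 339876 and 536544 counts. The targeted gene is not among the genes listed under the name *Mir182*, so that its level gave no check of the genotype labels.

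The 8 factors were detected in both libraries, with 60 to 1498 counts in the KO library and 67 to 2505 in the WT library, so that all passed the minimum of 10. Only *Onecut1* passed 2-fold. That is 1 of 8 factors higher, beside 9.46% of all genes tested and 4.95% of the 9322 genes with 100 or more counts in total, and beside 6.54% of the 428 genes among them that the authors' annotation assigns to transcription factors. None was lower, beside 9.94%, 5.94% and 5.84% of the same sets. With 8 genes a count of 1 or 0 cannot be told from these shares. The median log2 fold change of the factors was 0.16, and 0.09 without *Onecut1*, against a median of 0.14 over the 428 transcription factor genes. The remaining 7 factors lay between −0.28 and 0.61. The intervals of 5 factors left out 0, *Cebpa*, *Foxa2*, *Onecut1* and *Prox1* above it and *Cebpb* below it, and so did those of 59.8% of genes with at least 100 counts. In whole liver, fewer cells of a type and less RNA per cell cannot be told apart.

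**Figure D1:**
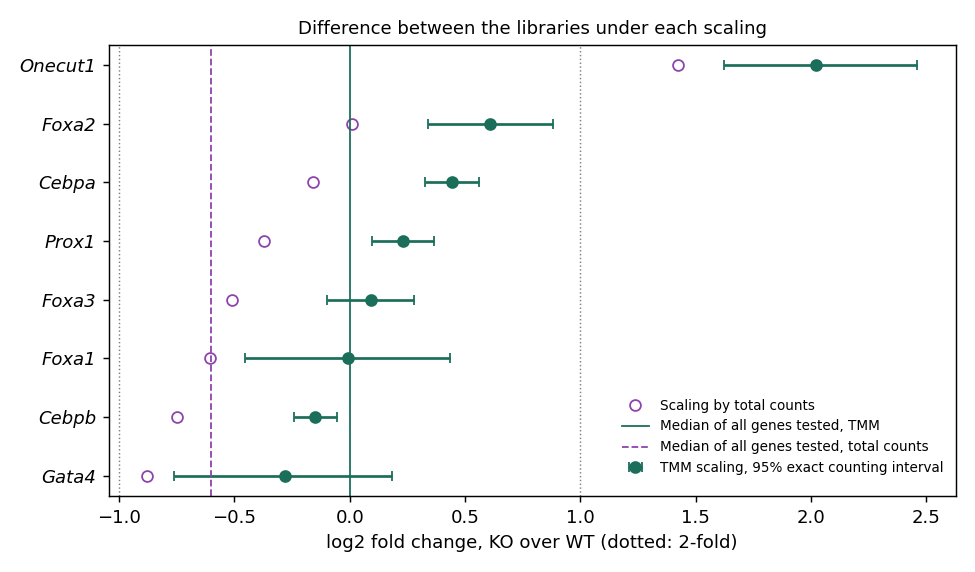
The log2 fold change of each factor, KO over WT, is drawn with its 95% exact counting interval under TMM scaling (filled) and as a point under scaling by total counts (open), with the median of all genes tested under each scaling as a vertical line. *Onecut1*, at 2.02 and 1.43, lies past the dotted 2-fold line under both, and the other 7 factors lie inside it.

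*Onecut1* encodes HNF6, a cut-homeodomain factor that acts in hepatocytes and bile duct cells. The gene lies at chr9:74861921-74891781 in the authors' table, on the plus strand, with 2 exons in its longest transcript. It had 182 reads in KO and 67 in WT. The KO library was the higher, by a factor of 4.07 after TMM scaling (interval 3.08 to 5.50), a log2 fold change of 2.02 (1.62 to 2.46). Of the genes with at least 100 counts 1.29% were at least as far above 0, and of the transcription factor genes 2.10%. The direction held under every scaling tried, with values from 1.35 on the scale of the authors' FPKM to 2.03. It was the one factor that had more reads in the KO library by a margin that no scaling removed.

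A lincRNA, *Gm20649*, overlaps *Onecut1* on the same strand by 2171 exon bases, and 54.3% of the 51-base words of the longest *Onecut1* transcript also occur in other transcripts. *Gm20649* had 1 count and 0 counts, so few reads were assigned to it in either library. With both genes summed, 183 and 67 counts, the log2 fold change was 2.04. Under edgeR's exact test with an assumed coefficient of variation of 0.2 between mice the adjusted p of *Onecut1* was 0.00078, and with an assumed 0.4 it was 0.55, so the call rests on a spread that 1 library per genotype cannot measure.

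Its family relative *Onecut2* went the other way. *Onecut2*, which shares the cut and homeodomains and has overlapping functions with *Onecut1* in the developing liver, had 354 reads in KO and 1285 in WT. It was lower in the KO library, with a log2 fold change of −1.27 (−1.44 to −1.10). In WT there were 0.0521 *Onecut1* reads for each *Onecut2* read, and in KO 0.514. This ratio does not depend on the scaling, and it was 9.86 times higher in the KO library (7.21 to 13.6). The pair was set side by side after its values had been seen. On a scale that allows for gene length, counts per kilobase of merged exons scaled to library totals (CPM per kilobase), *Onecut2* was at 6.01 and *Onecut1* at 1.24 in WT, and in KO the order was turned, with 1.65 and 3.34. The 3′ UTR of *Onecut2*, 14356 bases long, held 2 matches to the seed, and that of *Onecut1* the 1 shown above. *Onecut3* was at 0 in both libraries.

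*Onecut1* and the FOXA genes are also expressed in bile duct cells, whose markers were therefore read beside them. Of 8 cholangiocyte markers 6 were tested, 3 were higher by 2-fold and none was lower, beside 9.46% and 9.94% of all genes tested. *Krt19*, *Krt7* and *Muc1* were the 3, with 26, 15 and 43 reads in KO and 7, 6 and 10 in WT, too few to be named by the rule and given here after their values had been seen. The markers with more counts were closer to even, with a log2 fold change of 0.40 for *Spp1*, which encodes osteopontin, and −0.31 (−0.75 to 0.12) for *Sox9*, a factor of the biliary lineage. The summed level of the list was 168 and 126 TMM-scaled CPM (counts relative to the TMM-scaled size of the library). Most of this sum was *Spp1*, with 1638 and 1875 reads, and *Cftr* was at 0 in the WT library. The part of these cells in the result for *Onecut1* was not tested.

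**Figure D2:**
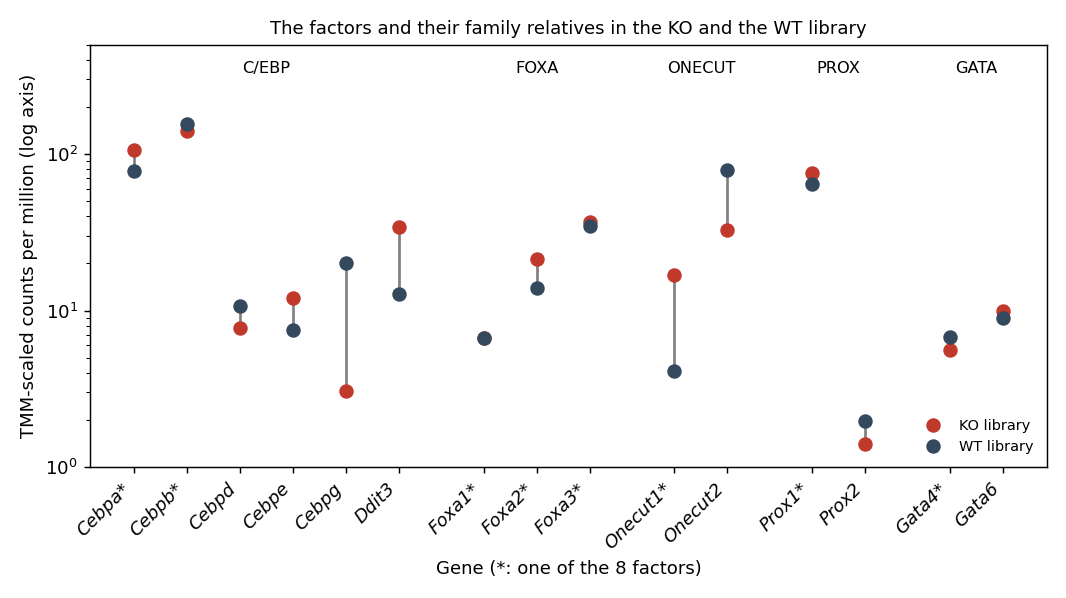
TMM-scaled CPM (log axis) are drawn for the 8 factors (asterisks) and those family relatives with at least 10 counts, with the KO and the WT library joined by a line. *Onecut1* is higher and *Onecut2* lower in the KO library, with *Onecut2* above *Onecut1* in both on this scale, which does not allow for gene length. *Cebpg* and *Ddit3* stand apart among the C/EBP genes, and *Foxa1* is at the same level in both libraries.

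The 2 C/EBP genes among the factors differed between the libraries by a small margin, under 2-fold for each. *Cebpa* (chr7:35119293-35121928, 1 exon) had 1144 reads in KO and 1268 in WT. After TMM scaling it was 1.36-fold higher in the KO library (1.25 to 1.47), a log2 fold change of 0.44 that turned to −0.16 under scaling by total counts. *Cebpb* (chr2:167688915-167690418, 1 exon) had 1498 and 2505 counts. Its log2 fold change was −0.15 (−0.24 to −0.06), and −0.75 under total counts, the lower in the KO library by each scaling tried. For *Cebpb*, 39.6% of the genes with at least 100 counts were as far below 0.

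The ratio of these 2 genes is free of the scaling. There were 0.506 *Cebpa* reads for each *Cebpb* read in WT and 0.764 in KO, a ratio 1.51 times higher in the KO library (1.36 to 1.67). This is a ratio of whole-liver reads in these 2 libraries, and the balance of the 2 proteins was not measured. *Tmem189*, on the opposite strand, shares 312 exon bases with *Cebpb* and had 73 and 104 counts. Whether reads were counted by strand is not given in the sources used here.

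Larger differences were found among the C/EBP relatives. *Cebpg* encodes C/EBPγ, which lacks an activation domain and forms dimers with the other C/EBP proteins and with ATF4. It had 33 reads in KO and 325 in WT, a log2 fold change of −2.69 (−3.27 to −2.19). *Ddit3* encodes CHOP, a stress-induced partner that keeps C/EBP proteins from their usual sites. It had 368 and 206 reads, or on the log2 scale a fold change of 1.43 (1.18 to 1.68), and of 0.83, under 2-fold, by total counts. GENCODE M21 lists another gene model of the same name that shares 105 exon bases with it, and the opposite-strand gene *Mars* shares 68. These were the largest moves in the C/EBP family in each direction. The number of *Ddit3* reads for each *Cebpg* read was 0.634 in WT and 11.2 in KO, 17.6 times higher (11.7 to 27.0). This pair too was chosen after its values had been seen. As with *Onecut1*, the calls of *Cebpg*, *Ddit3* and *Onecut2* did not hold under edgeR's exact test with an assumed coefficient of variation of 0.4.

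*Cebpd*, an acute-phase C/EBP, had a log2 fold change of −0.47 and *Cebpe*, known from granulocytes, one of 0.67, both inside 2-fold. Of 9 dimer and turnover partners of C/EBP proteins 8 were found by name and tested, with a median of 0.01. *Ddit3* was higher by 2-fold and *Cebpg* lower, beside 9.46% and 9.94% of all genes tested. Under total counts none was higher and 2 were lower, *Cebpg* and *Cebpd*, with all genes tested at a median of −0.60. *Trib1*, which directs C/EBPα to degradation, had 305 and 296 counts and a log2 fold change of 0.63, or 0.03 under total counts. Of the acute-phase genes, which C/EBPβ and C/EBPδ help to induce, 1 of 14 was higher by 2-fold, *Saa3* at 1.21, and none was lower. The shares over all genes tested were 9.46% and 9.94%, and the median of the 14 was 0.07. Under total counts *Saa3* was at 0.61 and none of the 14 passed 2-fold in either direction, with a median of −0.53. *Saa1* and *Saa2*, which encode serum amyloid A and are close copies of each other, were at −0.34 and −0.33, and *Orm2*, an orosomucoid gene, at 0.39.

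The FOXA genes differed in level more than they differed between the libraries. *Foxa3* (chr7:19013284-19023538, 2 exons), the FOXA gene most abundant in adult liver, had 396 reads in KO and 560 in WT, a log2 fold change of 0.09 (−0.10 to 0.28) whose sign turned under total counts, to −0.51. *Foxa2* (chr2:148042877-148046969, 3 exons), which governs bile acid and lipid genes, had 230 and 227 counts. Its log2 fold change of 0.61 (0.34 to 0.88) was the highest after *Onecut1*, but under total counts it was 0.01. *Foxa1* (chr12:57540631-57546121, 2 exons) had 72 and 109 counts and a log2 fold change of −0.01 (−0.46 to 0.44), a difference not detectable at this depth.

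Within the FOXA reads, which need no scaling, *Foxa2* took 33.0% in the KO library (exact Clopper-Pearson interval 29.5% to 36.6%) and 25.3% in the WT library (22.5% to 28.3%). *Foxa3* took 56.7% (53.0% to 60.4%) and 62.5% (59.2% to 65.7%). *Foxa1* took 10.3% (8.16% to 12.8%) and 12.2% (10.1% to 14.5%). *Foxa3* thus had most of the reads in both libraries, and the share of *Foxa2* was the one whose intervals did not overlap. These intervals do not allow for the number of comparisons. With the allowance used below for pairs of factors, the change in the *Foxa2* to *Foxa3* ratio, KO over WT, had an interval of 0.996 to 2.06. For *Foxa1* to *Foxa2* it was 0.366 to 1.15, so neither ratio differed beyond counting error at that level. Per base of merged exon the shares of *Foxa2* were 31.0% and 23.7%.

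*Prox1* encodes a homeobox factor of hepatocytes and of lymphatic endothelium that acts as a co-repressor of nuclear receptors. The gene (chr1:190118035-190170714, 5 exons) had 810 reads in KO and 1041 in WT, a log2 fold change of 0.23 (0.10 to 0.36) that was −0.37 under total counts. The antisense gene *Prox1os* shares 133 exon bases with it and had 35 and 40 counts, which cannot be separated from *Prox1* if strand was not used. Of 6 lymphatic markers 4 were tested. *Pdpn* was higher by 2-fold at 11 and 4 counts and *Lyve1* lower at 4 and 45, beside 9.46% and 9.94% of all genes tested. Both were named after their values had been seen. *Lyve1* is also a marker of sinusoidal endothelium. *Flt4*, a receptor for lymphatic growth factors, was at 0.29 on the log2 scale and *Reln*, the gene of reelin, at −0.31. *Reln*, with 137 and 256 reads, is also among the stellate cell markers used here. The summed level of the lymphatic list, *Reln* included, was 28.2 and 30.3 TMM-scaled CPM, and *Prox1* itself was at 75.3 and 64.2. This scale does not allow for gene length, and the part of lymphatic cells in the value of *Prox1* was not tested. *Ccl21a* was at 0 in both libraries. *Prox2* had 15 and 32 counts.

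*Gata4*, a zinc finger factor of endoderm that in adult liver also serves sinusoidal endothelium and stellate cells, was among the lowest of the factors. The gene (chr14:63198922-63271692, 7 exons) had 60 reads in KO and 110 in WT. Its log2 fold change of −0.28 (−0.76 to 0.18) was within counting error, and it was −0.88 under total counts. *Gata6*, the one other GATA gene with enough counts to be tested, had 107 and 145 counts and a log2 fold change of 0.15. *Gata1* was at 0 in both libraries and *Gata3* and *Gata5* in the WT library.

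Markers of the other cell types that use *Gata4* were read beside it. Of 12 sinusoidal endothelial markers all were tested, none was higher and 1 lower by 2-fold, *Lyve1*, beside 9.46% and 9.94% of all genes tested. Of the 12, 4 lay above 0 and 8 below, and their summed level was 173 and 172 TMM-scaled CPM. The scavenger receptor *Stab1* was at 0.46 and *Gpr182* at 0.43, while *Clec4g*, a lectin of these cells, was at −0.63 and *Kdr*, a receptor for vascular growth factors, at −0.51. Of 11 stellate cell markers, 3 were lower, *Col1a1* at −1.02, *Acta2* at −1.02 and *Ngfr* at −1.89, beside 9.94% of all genes tested. None of the 11 was higher, and their summed level was 145 and 205. *Lyve1* and *Ngfr* were named after their values had been seen. Under total counts 5 of the sinusoidal and 7 of the stellate cell markers were lower by 2-fold. That scaling put the median of all genes tested at −0.60, so 9.94% is not the share to set beside these counts. *Col1a1* encodes type I collagen and *Acta2* smooth muscle actin. At the other end *Hand2*, a factor of stellate cells, was at 0.35 and *Pdgfrb*, a growth factor receptor, at 0.03. No marker of these 2 lists was at 0. The part of these cells in the value of *Gata4* was not tested.

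The order of the levels was read on scales that allow for gene length. By the authors' FPKM, *Cebpb* was the highest of the 8 in both libraries, at 75.2 in KO and 127 in WT, rank 299 of 14945 genes with counts and rank 291 of 15542. *Cebpa* had 18.0 and 20.1 FPKM and *Foxa3* 14.7 and 20.9, which in the WT library were within counting error of each other. *Prox1* followed with 6.02 and 7.79, *Foxa2* with 4.54 and 4.51, and *Foxa1* with 1.70 and 2.60. At the low end *Gata4* had 0.653 and 1.20 FPKM. *Onecut1* had 2.66 in the KO library, above *Foxa1* and *Gata4*, and 0.985 in the WT library, the lowest of the 8 and within counting error of *Gata4*. In rank it stood at 4385 in KO and 8764 in WT, the largest shift of the 8.

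The gene lengths behind the FPKM bear on this order. The length that the authors' values imply for *Cebpa* was 4789 bases, where its merged exons in GENCODE M21 span 2636, and the 2 transcripts of the gene, added up, come to 4787. For *Gata4* it was 6942 against 3904, for *Foxa2* 3821 against 2370, and for *Onecut1* 5170 against 4113. It was equal to the merged exons within 1 base for *Cebpb* and *Foxa3*, which have 1 transcript each. The match of *Cebpa* to its summed transcripts was not general, as those of *Gata4* come to 11116 bases and those of *Foxa2* to 5838. Over 5872 genes with at least 2 transcripts and 100 KO counts, 77.0% had an implied length above that of the merged exons by over 2%. Only 4.48% were within 2% of the summed transcripts, and how the authors set the length is not known. The FPKM of such genes are low against those of genes whose implied length is that of their merged exons, but the KO to WT ratio of a gene is untouched. *Onecut2* has 1 transcript in GENCODE M21, yet its implied length was 25542 bases against 16234 of merged exons. Its coordinates in the authors' table also differ from those of GENCODE M21, the source of its merged exons here.

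On the scale of merged exons, *Cebpa* was at 32.8 and 36.5, clear of *Foxa3* at 14.7 and 20.9 in both libraries. *Foxa2*, at 7.33, was level with *Prox1*, at 7.29, in the KO library, and below it in the WT library, at 7.28 and 9.43. *Onecut1* was at 3.34 and 1.24, *Foxa1* at 1.63 and 2.49, and *Gata4* at 1.16 and 2.14. *Onecut1* was again last in the WT library, now with an interval, 0.959 to 1.57, below that of *Gata4*, 1.76 to 2.58. *Foxa1* and *Gata4* were within counting error of each other in both.

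**Figure D3:**
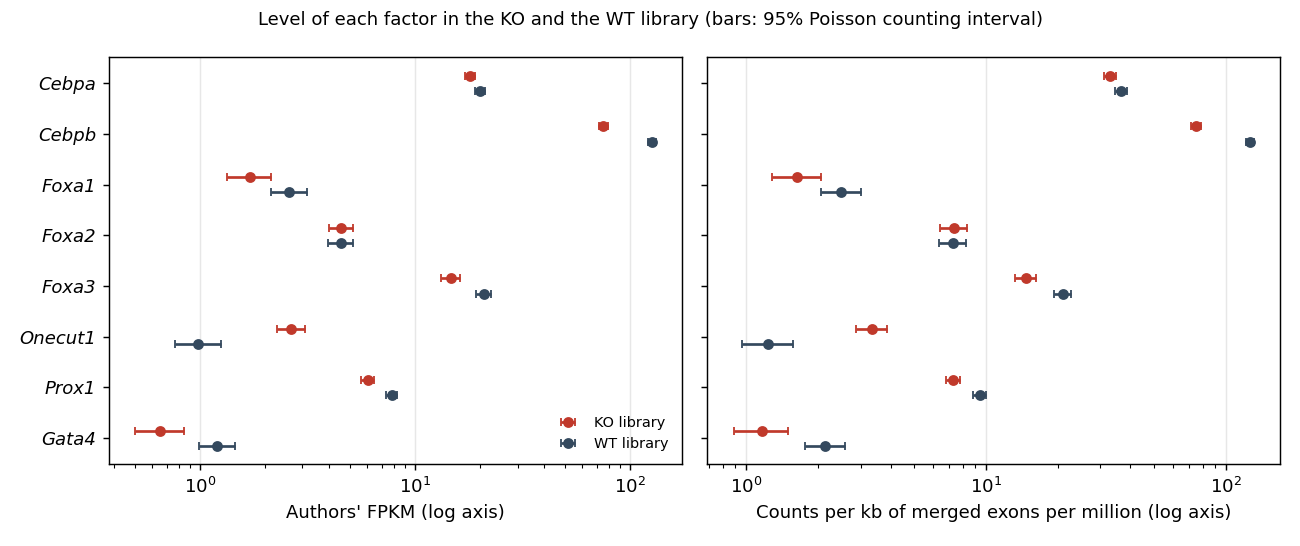
The level of each factor is drawn for both libraries, as the authors' FPKM on the left and as counts per kilobase of merged exons, scaled to library totals, on the right, with 95% Poisson counting intervals, on log axes. *Cebpb* is highest at 75.2 and 127, *Onecut1* is the one factor whose KO level lies clearly above its WT level, and *Cebpa* lies further from *Foxa3* on the right than on the left.

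Ratios between the factors were compared for all 28 pairs, since a ratio of 2 genes is the same under any scaling of the libraries. Each interval was taken at a level of 99.8%, which allows for the 28 comparisons. The ratio differed between the libraries beyond counting error in 11 pairs. All 7 pairs with *Onecut1* were among them, with changes of 2.68-fold, against *Foxa2*, to 4.98-fold, against *Gata4*. Of the 21 pairs without *Onecut1* only 4 were, and the largest change was 1.86-fold, for *Foxa2* over *Gata4* (95% interval 1.27 to 2.72).

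The other 3 of these pairs involved *Cebpb*, which was lower in the KO library relative to *Cebpa*, to *Foxa2* and to *Prox1*. The ratio of *Cebpb* to *Foxa2* in KO was 0.590 times that in WT (95% interval 0.484 to 0.720), and that of *Cebpb* to *Prox1* 0.769 times (0.686 to 0.861). Among the 15 pairs of the other 6 factors, the interval at the 99.8% level held 1 in 14, and 8 of the 15 left out 1 at the 95% level, with no allowance for the number of pairs. Against *Hnf4a*, a nuclear receptor of the same network with 3168 and 4601 counts, *Onecut1* was 3.95 times higher in the KO library (2.95 to 5.32) and *Foxa2* 1.47 times higher (1.21 to 1.79).

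**Figure D4:**
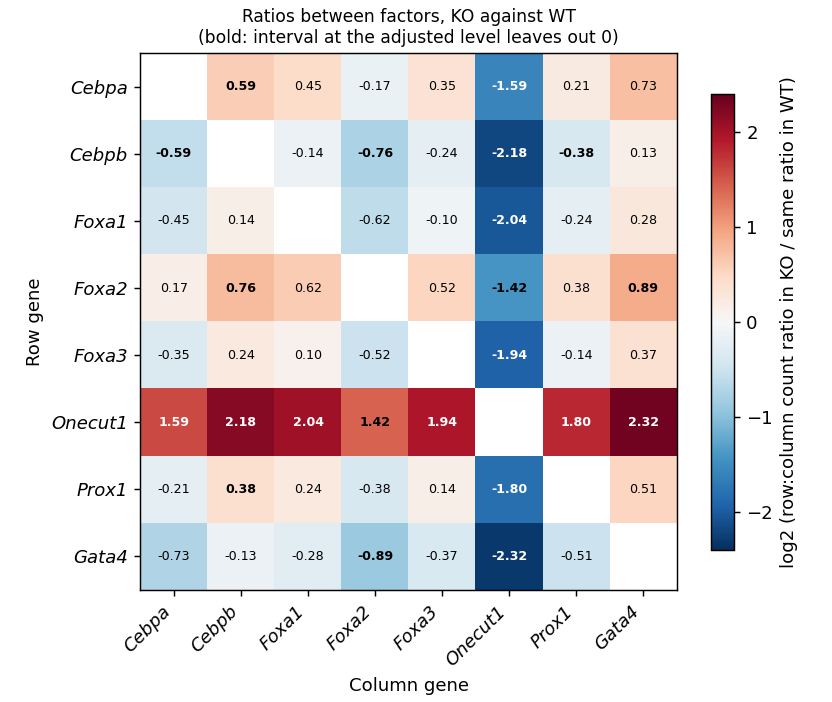
Each cell gives the log2 of the ratio of the row gene to the column gene in the KO library over the same ratio in the WT library, and bold values have an interval at the 99.8% level that leaves out 0. The row of *Onecut1* stands out with values from 1.42 to 2.32, and the remaining bold cells join *Cebpb* to *Cebpa*, *Foxa2* and *Prox1*, and *Foxa2* to *Gata4*.

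Other transcription factors of the network lay between −1.09 and 0.70, 13 of them above 0 and 6 below. Of 20 listed, 19 were tested, with a median of 0.31. None was higher by 2-fold and *Bcl6* was lower, beside 9.46% and 9.94% of all genes tested. Under total counts 4 were lower and none higher, with a median of −0.29, against −0.60 for all genes tested. *Hnf4a* had a log2 fold change of 0.05. *Zbtb20*, which silences fetal genes in the adult liver, had 3603 and 3338 counts and a log2 fold change of 0.70, and *Hhex*, a homeobox factor of early liver, one of 0.62. Under total counts these became 0.10 and 0.02. *Bcl6*, a repressor linked to growth hormone signaling and sex-biased genes, had 219 reads in KO and 705 in WT, at −1.09 (−1.32 to −0.87). *Atf5*, a liver-enriched basic leucine zipper factor, was at −0.73.

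Genes that these factors are known to drive in hepatocytes gave a median of 0.09 over 27 tested, or −0.51 under total counts. None was higher by 2-fold and *Apob* was the one lower, beside 9.46% and 9.94% of all genes tested. Under total counts 8 were lower, with all genes tested at a median of −0.60. *Apob*, which encodes the apolipoprotein of very low density lipoprotein, had 1517 reads in KO and 17808 in WT, a log2 fold change of −2.96 (−3.04 to −2.89). *Trf*, the gene of transferrin, was next at −0.87. At the upper end *Gys2*, liver glycogen synthase, was at 0.51 and *Pck1*, a gluconeogenic enzyme, at 0.49, and both turned slightly negative, −0.09 and −0.11, under total counts. Their summed level was 80413 and 86981 TMM-scaled CPM.

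**Figure D5:**
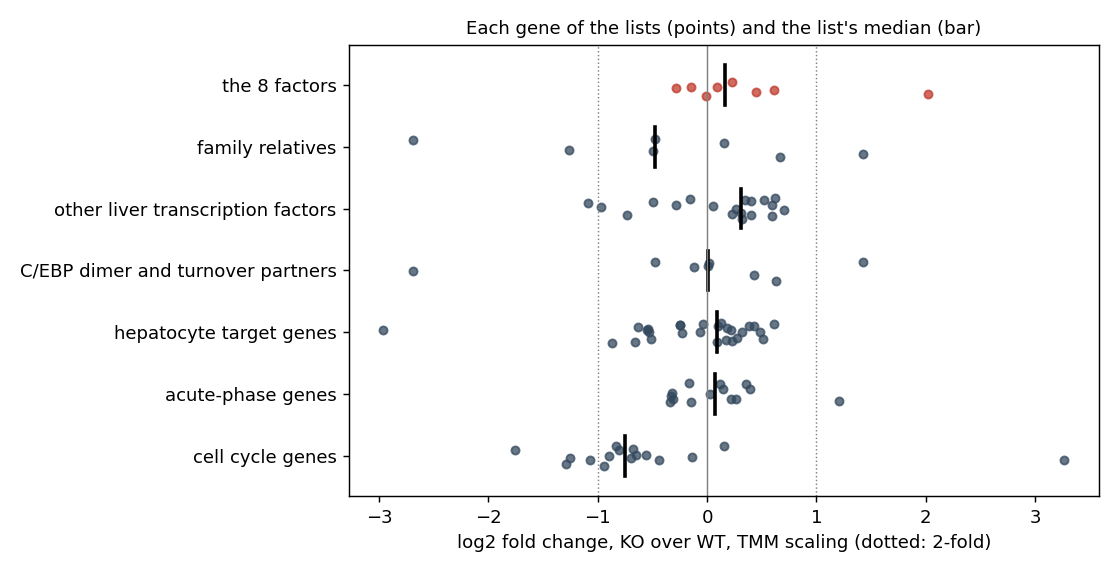
Each point is the log2 fold change of 1 gene, KO over WT, under TMM scaling, and the bars are the medians of the lists, with dotted lines at 2-fold. The 8 factors center on 0.16 with *Onecut1* alone on the right, most of the liver factors and hepatocyte genes lie inside the dotted lines, and the cell cycle genes center on −0.75.

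The promoters of *Onecut1* and of *Foxa2*, the factors highest in the KO library relative to the rest, are shown as 300 bases around the RefSeq start (GRCm38.p6). Searched on both strands were CACGTG (the E-box of basic helix-loop-helix factors), TGACGT (the core of the cAMP response element), ATCAAT (bound by ONECUT proteins), TGTTTNC (bound by FOXA proteins), AGATAA (bound by GATA factors), TTGCNNAA (bound by C/EBP proteins), TATAAA (the TATA box) and the letters of the GC box, GGGCGG. Capitals mark all of these except the GC box.
*Onecut1*, chr9:74861671-74861970, plus strand: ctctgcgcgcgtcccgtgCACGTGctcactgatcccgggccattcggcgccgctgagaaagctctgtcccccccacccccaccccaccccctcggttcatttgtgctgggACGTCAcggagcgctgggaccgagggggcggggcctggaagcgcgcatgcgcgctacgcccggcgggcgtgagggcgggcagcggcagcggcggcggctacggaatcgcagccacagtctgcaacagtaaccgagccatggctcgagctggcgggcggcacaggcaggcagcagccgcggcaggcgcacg
*Foxa2*, first start, chr2:148046920-148047219, minus strand: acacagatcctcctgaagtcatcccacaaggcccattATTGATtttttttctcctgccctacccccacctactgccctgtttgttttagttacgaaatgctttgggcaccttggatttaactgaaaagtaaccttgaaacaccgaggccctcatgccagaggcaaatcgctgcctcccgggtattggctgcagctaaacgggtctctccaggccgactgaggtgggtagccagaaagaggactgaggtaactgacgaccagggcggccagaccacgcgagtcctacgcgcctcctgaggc

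The *Onecut1* window holds CACGTG at position −232, counted from the start base, and the reverse complement of TGACGT at position −140. These are found in 7.15% and 7.51% of the 32851 promoters in the table. No letters for FOXA, C/EBP, ONECUT or GATA sites were found in it. The *Foxa2* window holds the reverse complement of ATCAAT at position −213, and 7.54% of promoters hold these letters on either strand. The FOXA letters, held by 20.5% of promoters, were found in those of *Foxa1* and of the second start of *Prox1*. The letters TATAAA, held by 13.6%, lie at position −30 in *Cebpa*, −36 in *Foxa3* and 21 in *Cebpb*, and their reverse complement at −34 at the first start of *Prox1* and −208 at the third start of *Foxa2*.

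The values of the factors with and without a match to the miR-182-5p seed are set side by side here, with no test. Of those with a match, *Cebpa*, *Foxa3* and *Onecut1* had log2 fold changes of 0.44, 0.09 and 2.02. The 5 without a match ranged from −0.28 for *Gata4* to 0.61 for *Foxa2*, so that both *Cebpa* and *Foxa3* lay within their range and *Onecut1* above it. The strongest match, the 8mer shown for *Cebpa*, went with a change of 1.36-fold, and under total counts with one of the opposite sign.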

How the data were processed

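The authors deposited, for each gene and library, a read count without normalization and the FPKM computed from it. The submitters' processing notes name HISAT2 2.0.4, StringTie, edgeR and the build hg38, but the genes are mouse Ensembl identifiers and the coordinates of 7 of the 8 factors are those of GENCODE M21 (GRCm38). How reads were counted, and whether by strand, is not given in the sources used here. The deposited FPKM divide by the total count of the library, mitochondrial genes included.

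The 13561 genes that reached 10 counts in the 2 libraries together were kept. Log2 fold changes were taken from TMM-scaled counts (edgeR 4.0.16 in R 4.3.3) with a prior count of 0.5, with exact binomial 95% intervals, and ratios of genes from conditional exact intervals (scipy 1.17.1). With 1 library per genotype the spread between mice cannot be estimated, so genotypes were tested only with an assumed spread, as an alternative. Levels carry Poisson intervals. The fold change step was tested on simulated data. Sequences are from RefSeq (promoters of 7 of the 8 factors, not *Gata4*) and GENCODE M21.

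The factors and gene lists were chosen with earlier results of these data known. Named genes are the 8 factors, of each list the 2 highest and 2 lowest with at least 50 counts in the higher library, and family relatives past 2-fold. *Krt19*, *Krt7*, *Muc1*, *Pdpn*, *Lyve1*, *Ngfr*, *Dbp* and *Aebp2* were named outside this rule, after their values had been seen. Alternatives were scaling by total counts (with and without mitochondrial genes), DESeq2 1.42.0 size factors and the upper quartile, the FPKM plus 0.1, a prior count of 5, minimums of 1 and 50 counts, and edgeR's exact test with an assumed coefficient of variation of 0.2 or 0.4. Levels per merged exon, the backgrounds of genes with at least 100 counts and of transcription factor genes, and *Onecut1* summed with *Gm20649* were chosen once the data had been seen.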

Additional observations from a re-analysis of the deposited data

How the results depend on the processing

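The median log2 fold change of the 8 factors, 0.16, was −0.44 under scaling by total counts and −0.44 with the authors' FPKM, which are scaled in the same way, and between 0.07 and 0.18 under the other alternatives run. The count of factors higher by 2-fold was 1 under each alternative but edgeR's exact test with an assumed coefficient of variation of 0.4, under which it was 0 with *Onecut1* at an adjusted p of 0.55. Under an assumed 0.2 it was 1, with an adjusted p of 0.00078. The count of factors lower by 2-fold was 0 in all of these. Of 65 values of single factors under alternatives, 49 stayed within the counting interval of the main value and 16 did not, all 16 under total counts or FPKM. *Cebpa*, *Foxa3* and *Prox1* turned from above to below 0 there, while *Onecut1* stayed above 2-fold. No paired analysis was possible because there is a single library of each genotype (1 KO, 1 WT), and for the same reason no library could be left out. Depth limits *Foxa1* and *Gata4* most, whose intervals reached from 0.729-fold to 1.35-fold and from 0.590-fold to 1.14-fold, and the spread between mice was not measured.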

Other observations

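Genes of the cell cycle, which hepatocytes switch on during regrowth after PH, included 4 of 16 that were lower by 2-fold in the KO library. This is beside 9.94% of all genes tested, and 1 was higher, beside 9.46%. The median log2 fold change of the 16 was −0.75. Under total counts it was −1.35, with 13 lower, against a median of −0.60 for all genes tested. *Cdk1*, the kinase of mitosis, had 106 reads in KO and 540 in WT, a log2 fold change of −1.75 (−2.07 to −1.45), and *Ccnb1*, its cyclin, was at −1.29. *Foxm1*, a factor that drives mitotic genes, went the other way, with 112 and 17 counts and a log2 fold change of 3.27 (2.57 to 4.14). *E2f1*, a factor of S phase entry, was at −0.14. All 8 markers of Kupffer cells and macrophages were below 0, where the median of all genes tested was 0.00. By 2-fold 2 of the 8 were lower, beside 9.94% of all genes tested, and under total counts 3 were. *Marco*, a scavenger receptor, was at −1.09, *Vsig4*, a complement receptor, at −0.86, *Cd68* at −0.17 and *Csf1r* at −0.08. The 5 neutrophil markers tested were at or above 0, *S100a8* at 0.00 and *S100a9* at 0.15, and none was higher by 2-fold. Under total counts *S100a8* and *S100a9* were at −0.60 and −0.45, and the median of the 5 was −0.01.

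Among transcription factor genes with 100 or more counts in total and 10 in each library, *Dbp*, with 462 and 62 counts, was the furthest above 0 at 3.48, and *Aebp2*, with 18 and 264, the furthest below at −3.25, in a ranking added after the data had been seen. *Cebpg* was second from the bottom at −2.69.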
